A study of Mus musculus with 48 samples.

Results

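3T3-L1 cells are mouse fibroblast-like preadipocytes able to become fat cells when given differentiating hormones. The data described here follow PPARγ knockdown (KD) cells from day 1 to day 2 of differentiation. The comparison was chosen from the sample titles, as the 3 arrays of PPARγ siRNA on day 2 against the 3 arrays of PPARγ siRNA on day 1, paired by replicate number and read over all probes. These are 6 of the 48 arrays of the series, which holds 2 siRNAs, 8 days (day −2 and days 0 to 6) and 3 replicates, described as independent biological replicates. The KD cells received 50 nM of an siRNA pool against PPARγ before differentiation, and the control cells the same amount of a non-targeting pool. All cells then received dexamethasone (0.25 µM) and IBMX (0.5 mM) for 48 h from day −2, followed by insulin (5 µg/ml) and rosiglitazone (1 µM) for 48 h from day 0. The sample protocols count the days from rosiglitazone, which puts days 1 and 2 in the insulin and rosiglitazone treatment. The design text of the series is shorter and names only IBMX, dexamethasone and insulin, so the schedule given here rests on the protocols. The model is a single cultured line, and the siRNA lowers the Pparg transcript without removing it.

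PPARγ is a nuclear receptor that, as a dimer with RXR, binds the regulatory regions of genes for fat storage, and rosiglitazone is a drug ligand that activates it. In 3T3-L1 cells the C/EBPβ and C/EBPδ factors rise early under dexamethasone and IBMX, the cells pass through a limited round of division known as mitotic clonal expansion, and PPARγ and C/EBPα then switch on the genes of the mature fat cell. Fibroblast matrix and contractile genes usually decline as the cells round up and fill with lipid.

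Signals are given as normalized log2 values, on which 1 unit is a doubling, and a probe was above background on an array at a detection p under 0.01. Between 37.9% and 39.6% of the probes were above background on the 4 arrays of replicates 1 and 2, and between 34.2% and 34.5% on the 2 arrays of replicate 3, which stood apart on both days. All 8 fibroblast markers (Col1a1, Col1a2, Vim, Thy1, Pdgfra, Pdgfrb, S100a4 and Fbn1) were above background on all 48 arrays. None of the 7 endothelial markers was above background on any array, nor were 7 of the 9 macrophage markers, Cd68, Csf1r and Ptprc among them, while Cd14 and Lyzs were above background on all 6 KD arrays. The arrays read RNA from whole cultures, so fewer cells of a kind and less RNA per cell cannot be told apart.

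Pparg itself rose in the KD cells between the 2 days. Its brightest probe, 6130632, read 8.58, 8.35 and 8.92 on day 1 and 9.60, 9.65 and 9.66 on day 2 in replicates 1 to 3, so that every day 2 array lay above every day 1 array. The log2 rise was 1.02 (SE 0.11, n = 3 pairs, Bonferroni adjusted p = 1.68e-06 by limma), a 2.03-fold change. Without replicate 2 the rise was 0.88 and missed the threshold (adjusted p = 0.0938). The control cells rose by 0.69 over the same day (adjusted p = 0.012), and the rises of the KD and the control did not pass a test of their difference (0.33, SE 0.16, adjusted p = 1). In spite of its rise Pparg remained lower in the KD, by 2.26 on day 1 and by 1.93 on day 2 on the log2 scale. A dimmer probe, 1990168, went from above background on 0 of the 3 KD arrays to 2 of 3 with a log2 difference of 0.72 that was not called, and probe 2680603 was above background on none of the 6. The deposited table does not say which stretch of the transcript each probe reads.

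**Figure D1:**
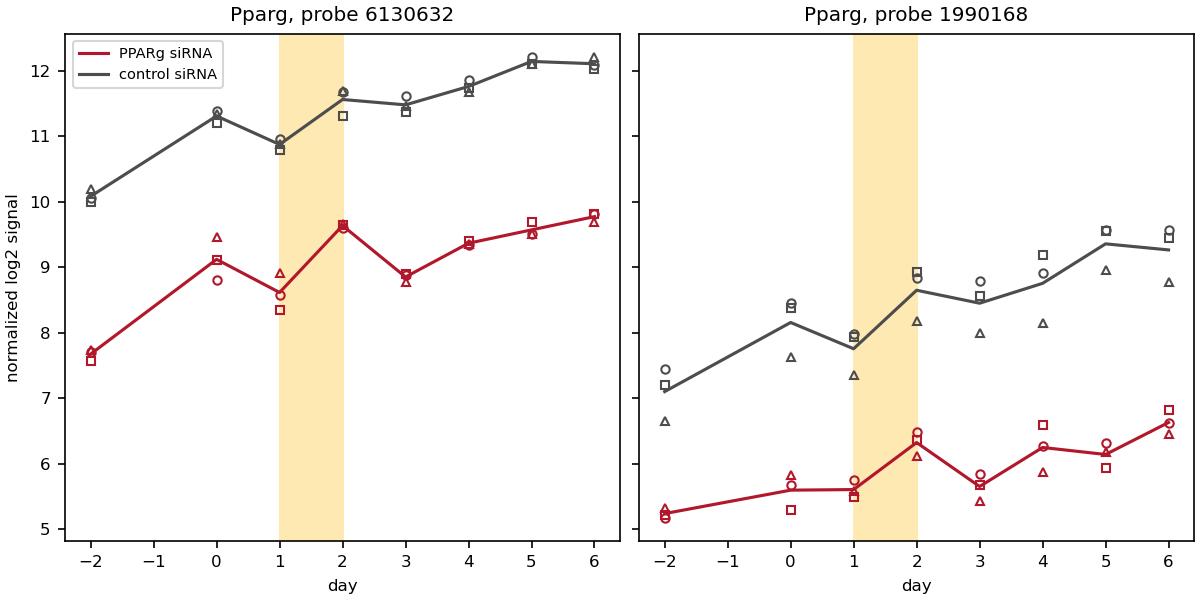
Normalized log2 signal of the 2 brighter Pparg probes (y axis) by day (x axis), with a point for each replicate and a line through the mean of 3, for PPARγ siRNA in red and control siRNA in grey. The shaded band is the interval from day 1 to day 2, in which probe 6130632 rose from a mean of 8.62 to 9.64 in the KD, while the control stayed above the KD on every day.

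Over the whole array, 602 of 24613 probes changed in the KD cells between day 1 and day 2, and more rose than fell. The adjusted p-values here and below are limma's with Bonferroni correction over all 24613 probes, and a probe called is one at or below 0.05. Of these probes 389 rose, which is 1.58% of all probes, and 213 fell, which is 0.865%. Each of the 389 and of the 213 moved the same way in 3 of 3 pairs of arrays. The calls rest on these same arrays, so this agreement adds no support. The median called rise was 0.76 and the median called fall −0.66 on the log2 scale, and 98 of the rises and 26 of the falls were larger than 2-fold. The median difference over all probes was −0.04. By Benjamini-Hochberg adjustment in place of Bonferroni 2787 probes were called, and 4745 had an unadjusted p under 0.05 by limma. With 1 probe (the brightest) per gene symbol, 1.86% of 18991 symbols rose and 0.943% fell, and among the 8717 symbols above background on at least 3 of the 48 arrays these shares were 4.06% and 2.04%. In the control cells 840 of the 24613 probes were called over the same day, of which 418 rose and 422 fell. The KD counts for gene lists below are read against the KD shares, and the control counts against these control numbers. Counts of list members whose change differed between KD and control have their own shares. Over all probes the change was higher in the KD in 1.15% and lower in 0.926%. Among the symbols above background on at least 3 arrays it was higher in 2.96% and lower in 2.29%.

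The largest rises of the day included genes of the fat cell. Adipoq encodes the adipokine adiponectin. Its signal was 5.60, 5.45 and 5.85 on day 1, above background on no array, and 9.47, 9.50 and 9.44 on day 2, above background on all 3, at least a 7.91-fold rise (adjusted p = 1.10e-14). Cidec, a lipid droplet protein that helps droplets fuse, went from 5.48, 5.78 and 6.32 to 9.30, 9.41 and 9.73, at least 7.96-fold (adjusted p = 1.69e-14). The day 1 and day 2 arrays of both genes were far apart, with no overlap. Gpd1, the cytosolic glycerol 3-phosphate dehydrogenase that supplies the backbone of triglyceride, read 6.79, 6.56 and 6.67 on day 1 and 9.39, 9.35 and 10.01 on day 2, a 7.50-fold rise (log2 2.91, SE 0.14, adjusted p = 8.99e-18). S3-12, now named Plin4, a coat protein of small lipid droplets, read 9.42, 9.34 and 9.53 on day 1 and 11.74, 11.60 and 11.52 on day 2, a 4.57-fold rise (log2 2.19, SE 0.08, adjusted p = 5.96e-21).

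These values started low. On day 2 the 3 KD arrays of Adipoq and of Cidec were still below the 3 control arrays of day 1, which read 11.91, 11.89 and 11.12 for Adipoq and 12.67, 12.51 and 12.08 for Cidec. The control cells also rose over the same day, by 2.24 for Adipoq and by 2.20 for Cidec on the log2 scale. For Adipoq, Cidec and Gpd1 the test of the difference between the KD and the control rise missed the Bonferroni threshold (adjusted p = 0.344, 1 and 0.218). The fitted rise of Gpd1 was larger in the KD by 1.01 (SE 0.20), in 3 of 3 pairs. By Benjamini-Hochberg adjustment all 3 fitted differences were called, each higher in the KD (limma adjusted p = 0.000471, 0.00112 and 0.000323). Adipoq and Cidec were above background on no KD array of day 1, so the size of their differences was not measured. Their lower bounds for the KD rise were 2.98 and 2.99. The missed Bonferroni threshold does not show equal rises. S3-12 differed, with a rise larger by 1.41 in the KD (SE 0.12, adjusted p = 1.20e-09). It too remained lower in the KD, with a mean of 11.62 on day 2 against 12.52 in the control on day 1.

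**Figure D2:**
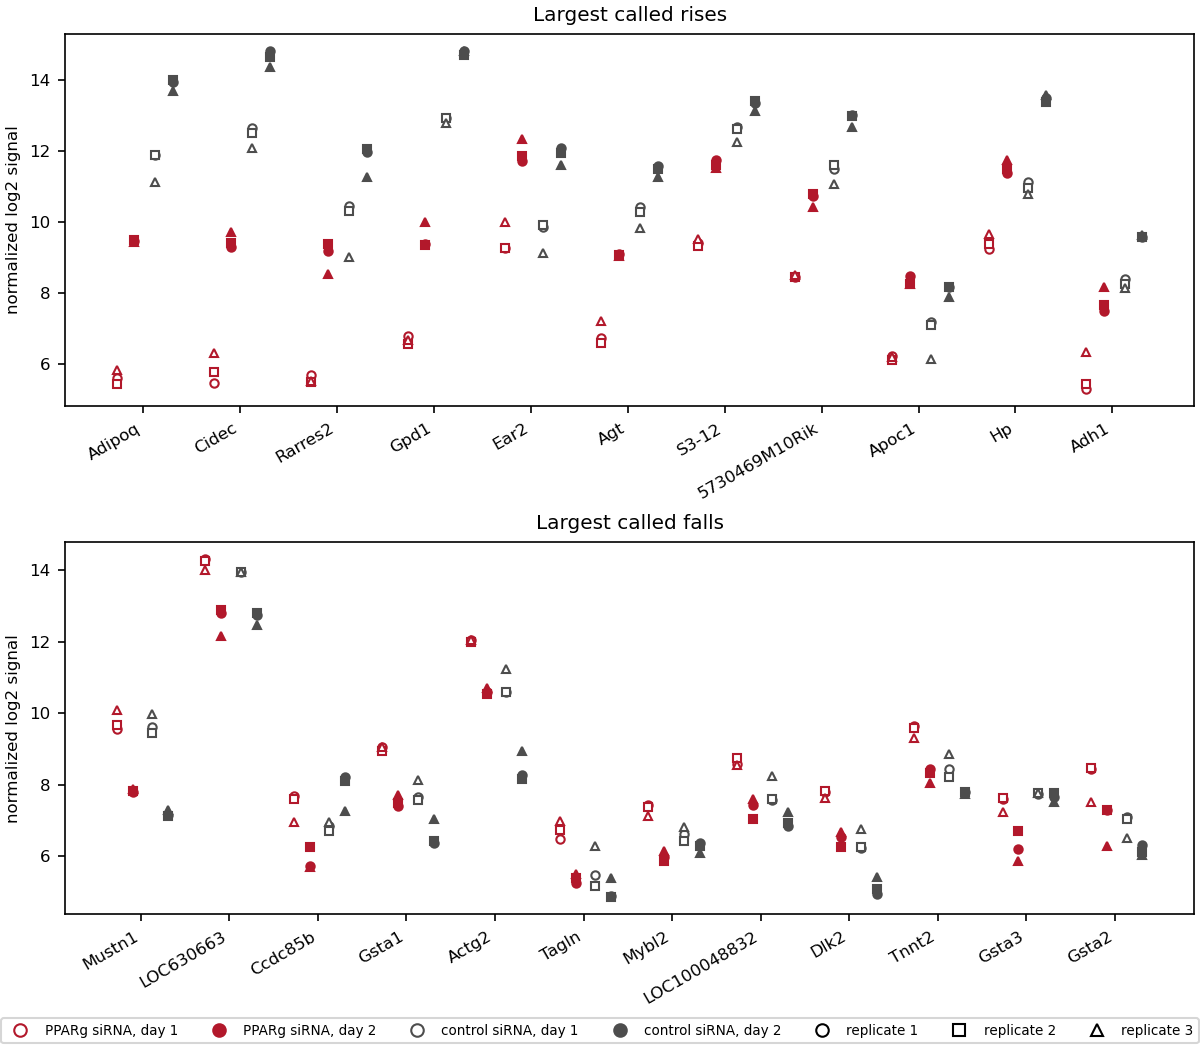
Normalized log2 signal (y axis) of the genes named for the largest called rises (upper panel) and falls (lower panel) in the KD from day 1 to day 2, 1 point per array, with marker shapes for the replicates, PPARγ siRNA in red, control siRNA in grey, day 1 open and day 2 filled. In the KD no day 2 point of a risen gene overlaps its day 1 points, and Adipoq, Cidec and Gpd1 on day 2 remain below the control cells of day 1.

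Of 32 terminal adipocyte genes on the array (adipokines, droplet proteins and lipid handling enzymes), 9 rose, which is 28.1%, and 0 fell, with a median difference of 0.43. Without replicate 1 the number that rose was 5 and without replicate 2 it was 6. Besides the 4 above, Pnpla2, the lipase that starts the breakdown of stored fat, rose by 1.25 (SE 0.16), and Acsl1, which activates fatty acids, by 1.14 (SE 0.16). Lpl, the lipase that takes up fat from lipoproteins, rose by 0.95, Dgat2, which makes triglyceride, by 0.80 and Adfp (Plin2), a droplet coat protein, by 0.63. Only 10 of the 32 were above background on all 6 KD arrays, so a change of the other members may lie below what the arrays read. Fabp4, the fatty acid binding protein of fat cells, was among those not above background, at 5.19, 5.17 and 5.38 on day 1 and 5.92, 5.40 and 5.89 on day 2. In the control cells 21 of the 32 rose over the same day with a median of 1.42, where 418 of all 24613 probes rose. The KD change was lower than the control change in 9 members and higher in 1, S3-12, against 0.926% and 1.15% of all probes. Without replicate 1 and without replicate 2 the number lower was 2. Members with a lower KD change included Cfd, the adipokine adipsin, and Plin, the main coat protein of large droplets, both above background on none of the 6 KD arrays while they rose by 1.82 and 1.90 in the control. Agpat2, an enzyme of triglyceride synthesis, had a difference of 0.26 in the KD and rose by 2.10 in the control, and Dgat2 rose by 0.80 and 1.99.

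Promoter sequences are shown for the members that rose furthest, since they moved together on this day. The table of mouse promoters holds windows for Adipoq and Cidec, the latter with 2 annotated starts, and Gpd1 is named only. Each run below is the 250 bases before an annotated start, 5′ to 3′ on the strand of the gene, from RefSeq on GRCm38.p6, and capitals mark matches to CCAAT on either strand, a short motif of many promoters that the factor NF-Y is known to bind.
Adipoq, chr16:23146286-23146535, plus strand: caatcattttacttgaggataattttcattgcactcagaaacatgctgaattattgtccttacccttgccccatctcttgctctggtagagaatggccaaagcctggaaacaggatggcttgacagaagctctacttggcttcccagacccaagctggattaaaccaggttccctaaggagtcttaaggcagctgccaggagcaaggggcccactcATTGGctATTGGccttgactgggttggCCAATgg
Cidec, chr6:113434765-113435014, minus strand: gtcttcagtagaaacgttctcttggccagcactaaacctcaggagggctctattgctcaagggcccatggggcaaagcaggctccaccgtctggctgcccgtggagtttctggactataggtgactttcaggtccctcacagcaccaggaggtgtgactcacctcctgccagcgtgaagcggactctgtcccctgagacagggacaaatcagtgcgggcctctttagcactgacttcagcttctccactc
Cidec, chr6:113435761-113436010, minus strand: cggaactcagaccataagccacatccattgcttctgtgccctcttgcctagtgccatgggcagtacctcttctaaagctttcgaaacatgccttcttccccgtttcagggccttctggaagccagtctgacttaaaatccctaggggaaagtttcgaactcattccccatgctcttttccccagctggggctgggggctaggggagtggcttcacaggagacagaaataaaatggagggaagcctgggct
The Adipoq window held 3 CCAAT matches, of which the nearest ended 3 bases before the start, and neither Cidec window held a match to any motif searched. CCAAT was in 33.8% of all 32851 promoter windows of this length. A match describes the sequence and does not show that a factor binds it.

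Among the other large rises were secreted and metabolic genes. Rarres2, which encodes the adipokine chemerin, went from 5.70, 5.49 and 5.52, above background on no array, to 9.18, 9.39 and 8.55, at least 5.86-fold (adjusted p = 1.67e-13). Agt, the angiotensin precursor, read 6.75, 6.61 and 7.22 on day 1 and 9.11, 9.06 and 9.06 on day 2, a 4.65-fold rise (log2 2.22, SE 0.18). Hp, the haemoglobin binding protein haptoglobin, read 9.24, 9.40 and 9.68 and then 11.39, 11.50 and 11.76, a 4.33-fold rise (log2 2.11, SE 0.14). In none of these did a day 2 array overlap the day 1 arrays. Apoc1, an apolipoprotein, rose at least 3.60-fold and Adh1, an alcohol and retinol dehydrogenase, at least 2.44-fold, each from above background on 0 of 3 arrays to 3 of 3. 5730469M10Rik (Prxl2a, a peroxiredoxin-like protein) rose 4.54-fold. Ear2, a ribonuclease, rose 5.50-fold on its brightest probe (log2 2.46, SE 0.22), and its other probes and that of EAR3 rose too. The Ear genes are near-identical copies, so which of them was measured is uncertain. In the control cells Rarres2, Agt, Hp and Ear2 also rose over the same day, by 1.84, 1.27, 2.52 and 2.24 on the log2 scale. Apoc1, Adh1 and 5730469M10Rik rose there by 1.27, 1.33 and 1.51. None of these genes passed the test of the difference between KD and control at the Bonferroni threshold. By Benjamini-Hochberg Rarres2, Agt, Apoc1 and 5730469M10Rik did, each higher in the KD.

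The largest falls included muscle-type contractile genes and glutathione transferases. Mustn1, a small nuclear protein known from muscle and cartilage, read 9.56, 9.68 and 10.08 on day 1 and 7.79, 7.81 and 7.89 on day 2, with no overlap (log2 −1.95, SE 0.09, adjusted p = 1.31e-17). Actg2, a smooth muscle actin, read 12.05, 11.98 and 12.06 and then 10.60, 10.53 and 10.70 (−1.42, SE 0.11, adjusted p = 2.18e-10). Tnnt2, a troponin of heart muscle, fell by 1.24 on the log2 scale, and Tagln, an actin binding protein of smooth muscle, fell at least 1.19-fold to above background on no array. Acta1, the only skeletal muscle marker above background on the 3 day 1 arrays, fell by 1.01, whereas Myod1, Myog and Ckm were above background on none of the 48 arrays. In the control cells Mustn1 and Actg2 fell by 2.49 and 2.35 on the log2 scale over the same day. Tnnt2 had a control difference of −0.73 that was not called, and Tagln was above background on no control array of these days.

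Gsta1, a glutathione S-transferase that conjugates toxic compounds, read 9.07, 8.94 and 9.04 on day 1 and 7.40, 7.49 and 7.70 on day 2 (−1.49, SE 0.13, adjusted p = 2.46e-09). Gsta2 and Gsta3 fell by 1.19 and by 1.22 on the log2 scale. These family members are close in sequence, and a probe of one may read another. Mybl2, a transcription factor of dividing cells, fell at least 1.79-fold, from above background on all 3 arrays to 0 of 3. Dlk2, a relative of the preadipocyte protein Dlk1, fell by 1.27 (SE 0.17). Ccdc85b, a coiled-coil protein, read 7.68, 7.59 and 6.95 on day 1 and 5.71, 6.27 and 5.68 on day 2 (−1.52, SE 0.18), while in the control cells it rose by 1.02. Ccdc85b and Gsta3 were each above background on only 1 of 3 KD arrays of day 2, so the sizes of their falls are uncertain. The list also held 2 symbols with no current RefSeq name, LOC630663 (−1.58) and LOC100048832 (−1.27). In the control cells Gsta1 and LOC630663 fell by 1.18 and 1.28 on the log2 scale, while Gsta2, Gsta3, Mybl2 and LOC100048832 were not called. Dlk2 was above background on no control array of these days.

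Some genes of the cell cycle fell in the KD on this day, and none on the lists of DNA replication and mitosis rose. Of 40 DNA replication genes on the array, 7 fell, which is 17.5%, and 0 rose, and 39 of the 40 differences were below 0 with a median of −0.46. Mcm10, which helps start replication forks, read 8.50, 8.38 and 8.74 on day 1 and 7.30, 7.46 and 7.89 on day 2 (−0.99, SE 0.14, adjusted p = 0.000951). Tk1, the thymidine kinase of S phase, fell by 0.90, Gins1, a subunit of the replication helicase, by 0.75, and Cdt1, which loads the helicase on origins, by 0.70. The helicase subunit Mcm5 had a difference of −0.64 that was not called (adjusted p = 0.0544). None of the 40 was called in the control cells, where the median was −0.02, and the test of the difference called 2 members lower in the KD, Cdt1 and the S phase cyclin Ccne1. With median scaling, without replicate 1 and without replicate 2, 0 such differences were called, and without replicate 3 it was 1. By Benjamini-Hochberg 17 of the 40 had a lower change in the KD than in the control and 0 a higher one. Of all 24613 probes 1236 were lower and 1393 higher by that adjustment.

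Of 41 mitosis genes 9 fell, which is 22.0%, and 0 rose, and 37 of the 41 differences were below 0 with a median of −0.52. Ccnf, a cyclin of G2 that targets proteins for destruction, read 7.31, 7.23 and 7.47 on day 1 and 6.46, 6.33 and 6.54 on day 2 (−0.89, SE 0.15, adjusted p = 0.012). Cdc20, which activates the anaphase-promoting complex, read 12.33, 12.36 and 12.20 and then 11.49, 11.52 and 11.55 (−0.78, SE 0.12, adjusted p = 0.00573), and its other probes fell too. Day 1 and day 2 arrays did not overlap for either gene. Cenpa, the histone of the centromere, fell by 0.75 and Kif23, a kinesin of the dividing cell's midzone, by 0.72. Ccnb1, the mitotic cyclin, had a difference of −0.58 that was not called. None of the 41 was called in the control cells, whose median was −0.14, and no member differed between KD and control by the test of the difference. By Benjamini-Hochberg 5 of the 41 had a lower change in the KD and 0 a higher one. Of all 24613 probes 1236 were lower and 1393 higher by that adjustment.

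The size of these falls depended little on the processing, but the number called did. The medians of the replication list lay between −0.51 and −0.43 and those of the mitosis list between −0.53 and −0.48 with quantile normalization, with median scaling and without each replicate in turn. The replication and mitosis genes called numbered 0 and 0 without replicate 1, 0 and 1 without replicate 2, 7 and 2 without replicate 3, and 1 and 1 with median scaling.

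Promoters of the 3 mitosis genes that fell furthest are shown because the cell cycle genes moved together. They are the 250 bases before the start on GRCm38.p6, from RefSeq and 5′ to 3′ on the strand of the gene. Capitals mark matches on either strand to CCAAT, to TTTGAA, known as the core of the cell cycle homology region, and to GGGCGG, a GC box.
Ccnf, chr17:24251410-24251659, minus strand: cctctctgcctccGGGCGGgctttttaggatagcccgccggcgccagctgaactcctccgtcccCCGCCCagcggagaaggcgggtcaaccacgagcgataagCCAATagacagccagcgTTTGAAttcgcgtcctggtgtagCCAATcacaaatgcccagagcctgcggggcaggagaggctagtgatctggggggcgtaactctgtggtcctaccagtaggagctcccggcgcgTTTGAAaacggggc
Cdc20, chr4:118437344-118437593, minus strand: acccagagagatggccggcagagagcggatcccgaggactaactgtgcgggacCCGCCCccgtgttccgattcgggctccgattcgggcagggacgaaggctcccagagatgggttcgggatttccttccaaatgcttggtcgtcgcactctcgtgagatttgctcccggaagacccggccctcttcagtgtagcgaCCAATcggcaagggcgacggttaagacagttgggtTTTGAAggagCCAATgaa
Cenpa, chr5:30666636-30666885, plus strand: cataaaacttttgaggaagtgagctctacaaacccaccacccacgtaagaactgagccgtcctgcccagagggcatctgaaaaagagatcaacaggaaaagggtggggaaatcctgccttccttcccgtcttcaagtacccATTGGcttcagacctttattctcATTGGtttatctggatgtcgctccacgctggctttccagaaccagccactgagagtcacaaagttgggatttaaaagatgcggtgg
CCAAT matched in all 3 windows, TTTGAA in those of Ccnf and Cdc20, and GGGCGG in the same 2. Of all 32851 windows, 33.8% held CCAAT, 16% TTTGAA and 32.7% GGGCGG. The E2F-like motifs TTTGGCGC, TTTCGCGC and TTTCCCGC, held by 0.417%, 0.256% and 0.895% of windows, did not match in any window printed here, nor did TCACNCCAC (1.05%), TGACGTCA (1.55%) or TATAAA (12.4%). No motif searched contains another.

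Some genes that usually respond to glucocorticoids rose. Of 19 on the array, 4 rose, which is 21.1%, and 0 fell, with a median of 0.47. In the control cells 2 rose with a median of 0.14. Taken member by member, the difference between the KD and the control change had a median of −0.02. Sult1a1, a sulfotransferase, rose by 1.18 (SE 0.20), and Angptl4, a secreted inhibitor of lipoprotein lipase that is also known to respond to PPARγ ligands, by 1.13 (SE 0.12). Dusp1, a phosphatase of MAP kinases, read 10.59, 10.66 and 10.56 on day 1 and 11.39, 11.48 and 11.31 on day 2 (0.79, SE 0.09, adjusted p = 9.53e-06), and Mt1, a metallothionein, rose by 0.49. The classical members Fkbp5 and Tsc22d3 had differences of 0.56 and 0.47 that were not called. No member differed between KD and control by the test of the difference. By Benjamini-Hochberg 1 was higher in the KD and 1 lower, where 1393 and 1236 of all 24613 probes were. The number that rose was 2 without replicate 1, 1 without replicate 2 and 2 with median scaling.

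Pparg, described above, is not on the list of adipogenic transcription factors. None of its 21 members on the array was called in either direction by limma, with a median of 0.10, while 6 had an unadjusted p under 0.05 and 3 were called by Benjamini-Hochberg. Over all 24613 probes these numbers were 4745 and 2787. Cebpb read 12.81, 12.75 and 12.73 on day 1 and 12.74, 12.71 and 12.73 on day 2, a difference of −0.04 (SE 0.08), and Cebpd had a difference of 0.03 (SE 0.10). Cebpa was above background on none of the 6 KD arrays, at 5.59, 5.19 and 5.47 and then 5.51, 5.47 and 6.11, while it rose in the control cells, where it was above background on all 6 arrays of these days. Of 21 genes that hold or mark preadipocytes 1 rose, the growth factor receptor Pdgfra, which read 12.11, 12.11 and 12.09 and then 12.94, 12.96 and 12.56 (0.72, SE 0.12, adjusted p = 0.0144). Pdgfra lost its call under 6 of 13 alternative ways of processing. Dlk1, the preadipocyte membrane protein, had a difference of −0.41 that was not called.

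Matrix genes moved in both directions. Of 33 extracellular matrix genes 5 rose and 3 fell, with a median of 0.25, and in the control cells 2 rose and 7 fell with a median of −0.19. The number of rises in the KD was 0 without replicate 1, 1 without replicate 2, 3 without replicate 3 and with median scaling, and 1 without the replicate block, and that of falls was 2 in each of these. Lum, a small proteoglycan that binds collagen, read 9.18, 9.26 and 8.73 on day 1 and 10.43, 10.51 and 9.35 on day 2 (1.04, SE 0.13, adjusted p = 6.19e-05). Postn (periostin, 1.00), Dpt (dermatopontin, 0.97) and Dcn (decorin, 0.71) rose as well, and Col6a3, a collagen VI chain, by 0.61. Tnc, the matrix protein tenascin C, read 8.42, 8.30 and 8.53 and then 7.35, 7.35 and 7.55, and Nid1 (nidogen of basement membranes, −0.90) and Fn1 (fibronectin, −0.60) fell as well. The test of the difference called 4 members higher in the KD than in the control, among them Dcn, and 0 lower. Without replicate 1 and with median scaling 0 of these differences were called, and without replicate 2 it was 1. In the control cells Postn, Dcn and Lum had differences of 0.09, −0.23 and 0.04, none of them called.

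Of 22 matrix proteases and inhibitors 4 rose and 1 fell. Timp4, an inhibitor of metalloproteinases, rose by 1.75 (SE 0.20), from above background on 1 of 3 arrays to 3 of 3. Mmp2, a gelatinase, read 13.56, 13.48 and 14.04 on day 1 and 14.49, 14.43 and 14.64 on day 2 (0.83, SE 0.08, adjusted p = 8.24e-09), and its activator Mmp14 rose by 0.71 and Mmp23 by 0.56. Timp1, another inhibitor, fell by 1.00 on the log2 scale. Among the 22, 6 differed from the control by the test of the difference, each higher in the KD, where 1.15% of all probes were higher. Mmp2, Mmp14 and Mmp23 were among the 6, with control differences of −0.00, −0.08 and −0.18. With median scaling, without replicate 1 and without replicate 2, 0 of these 6 differences were called, and without replicate 3 it was 2. Of 24 contractile cytoskeleton genes only Actg2 and Tagln fell in the KD (median −0.16), whereas 13 fell in the control cells (median −0.55), and 4 members, Actg2, Cnn2, Myl9 and Tpm1, were higher in the KD by the test of the difference. With median scaling, without replicate 1 and without replicate 2, 0 of these 4 were called, and without replicate 3 it was 2. Myl9, a myosin light chain, had a difference of −0.22 in the KD and −1.28 in the control.

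**Figure D3:**
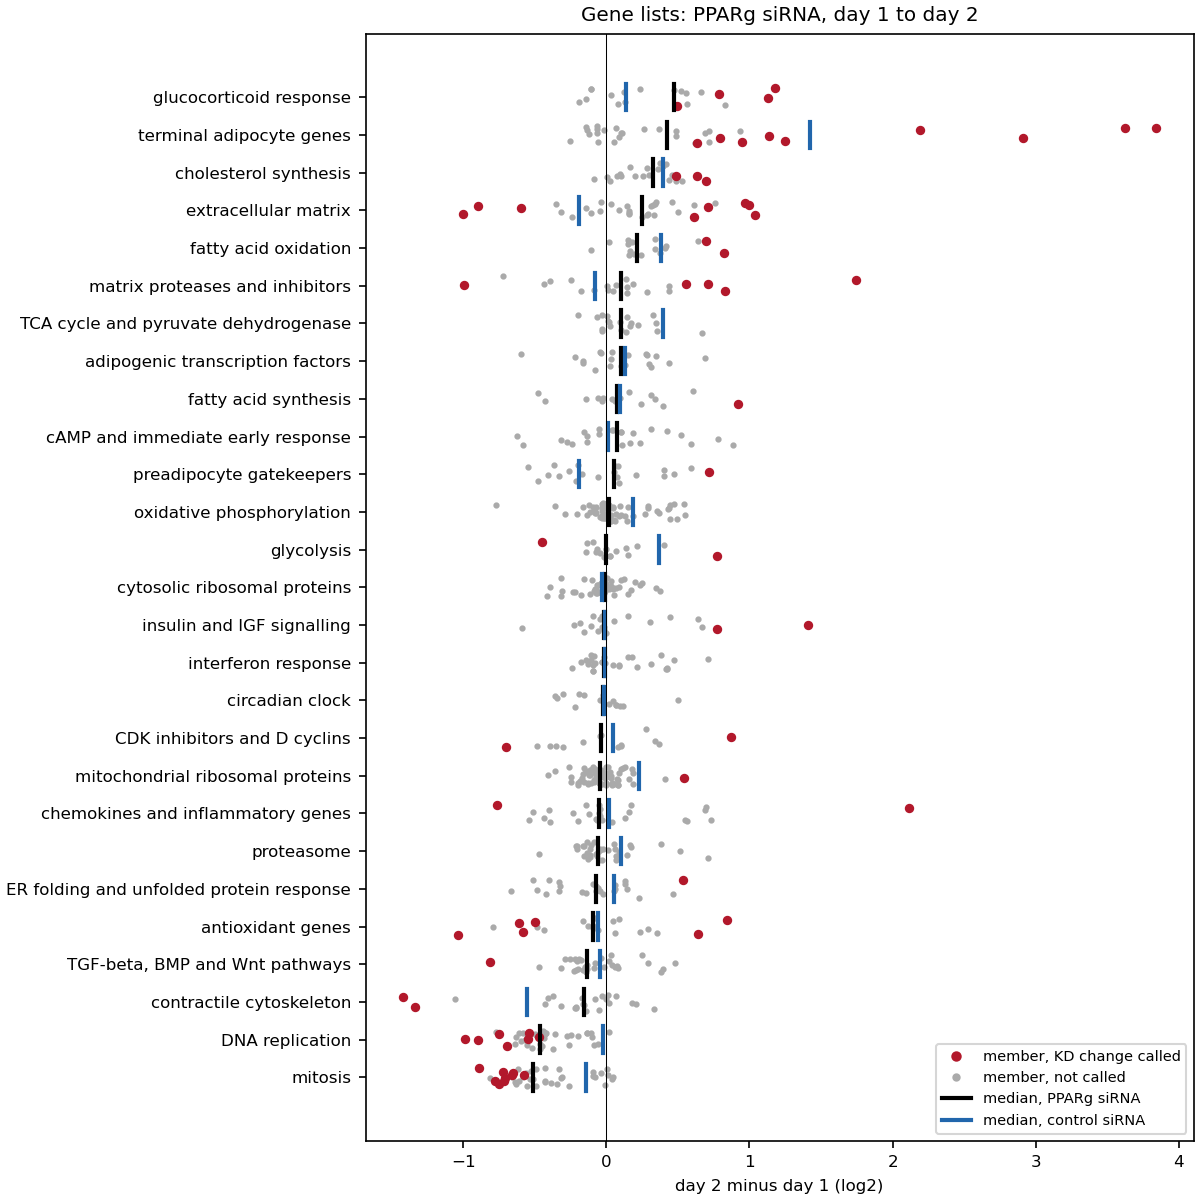
Log2 difference from day 1 to day 2 in the KD (x axis) of every member of 27 gene lists (y axis, sorted by median), with called members in red, others in grey, the median of the KD as a black bar and the median of the control cells as a blue bar. The mitosis and DNA replication lists have the lowest KD medians (−0.52 and −0.46) and the glucocorticoid response and terminal adipocyte lists the highest (0.47 and 0.43).

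Of 22 cholesterol synthesis genes 3 rose, Mvd (0.69), Hsd17b7 (0.63) and Nsdhl (0.49), all enzymes of the pathway, and 21 of the 22 differences were above 0 with a median of 0.33, against 7 rises and a median of 0.40 in the control. The number that rose in the KD was 0 with median scaling, without the replicate block and with only the arrays compared. It was also 0 without replicate 1 and without replicate 2, and 2 without replicate 3. Of 17 fatty acid synthesis genes only Acss2, which makes acetyl-CoA from acetate, rose (0.92), and Fasn, the fatty acid synthase, had a difference of 0.40 that was not called. Of 18 fatty acid oxidation genes 2 rose, Ech1 (0.82) and Acaa2 (0.70), enzymes of the mitochondrial spiral. In glycolysis Eno2, an enolase, rose by 0.78 and Pkm2, the pyruvate kinase, fell by 0.45 on the log2 scale. Pkm2 lost its call under 7 of 13 alternative ways of processing. The glycolysis median of the control, 0.36, stood against −0.00 in the KD. None of 20 citric acid cycle genes and none of 64 subunits of oxidative phosphorylation was called in the KD by limma, while 6 and 14 had an unadjusted p under 0.05, 1 and 9 were called by Benjamini-Hochberg, and 6 and 4 rose in the control cells. Of all 24613 probes 4745 had an unadjusted p under 0.05 in the KD and 2787 were called by Benjamini-Hochberg.

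Of 21 antioxidant genes 4 fell and 2 rose. Without replicate 1 and without replicate 2 the fall was called in 1 member and the rise in 0. Gclm, the regulatory subunit of the enzyme that sets the rate of glutathione synthesis, read 11.16, 11.06 and 11.24 on day 1 and 10.25, 10.03 and 10.06 on day 2 (−1.04, SE 0.11, adjusted p = 1.06e-06), and Nqo1 (−0.61), Srxn1 (−0.58) and Gsta4 (−0.50) fell too. The microsomal glutathione transferases Mgst1 and Mgst3 rose by 0.84 and 0.64. Among 21 genes of insulin and IGF signalling Igfbp4, which binds IGFs, rose by 1.41 (SE 0.12) and Cish, a feedback inhibitor of cytokine receptors, by 0.77. Ccnd1, the G1 cyclin D1, read 14.31, 14.31 and 14.22 and then 13.60, 13.61 and 13.53 (−0.70, SE 0.07, adjusted p = 3.10e-08), and Ccng2, a cyclin of resting cells, rose by 0.87. Hp rose and the serine protease inhibitor Serpina3g fell (−0.77) among 27 inflammatory genes, each 3.7% of the list. Wisp2 (Ccn5), a Wnt-induced secreted protein, fell by 0.81 among 32 genes of the TGF-β, BMP and Wnt pathways (3.1%). Xbp1, a factor of the unfolded protein response, rose by 0.53 among 25 (4%) and lost its call under 7 of 13 alternative ways of processing. Mrps6 rose by 0.54 among 72 mitochondrial ribosomal proteins (1.39%), of which 48 differences were below 0. Their median was −0.04, against 0.23 in the control. By Benjamini-Hochberg the change of 22 of the 72 was lower in the KD than in the control, and of 1 higher. Over all symbols 1.86% rose and 0.943% fell, and of those above background on at least 3 of the 48 arrays 4.06% and 2.04%. No member of the cAMP response (24), interferon response (28), circadian clock (15), cytosolic ribosomal protein (43) or proteasome (35) lists was called by limma, while 8, 8, 4, 6 and 8 of them had an unadjusted p under 0.05 and 3, 3, 2, 2 and 2 were called by Benjamini-Hochberg. Over all 24613 probes 4745 had an unadjusted p under 0.05 and 2787 were called by Benjamini-Hochberg.

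Whether the KD and the control cells changed alike over this day was tested for each probe as the difference of their changes. The test called 512 probes. In 284 the change was higher in the KD, 1.15% of all probes and 2.96% of the symbols above background, and in 228 it was lower, 0.926% and 2.29%. Of the 228, 129 rose in the control and 52 fell in the KD. Of the 284, 141 fell in the control and 103 rose in the KD. In 16 probes, 10 of the 284 and 6 of the 228, both changes were called and ran in opposite directions.

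Several of the genes named for a lower change in the KD were above background on no KD array, so the size of their difference was not measured. Ppp1r1a, an inhibitor of protein phosphatase 1, read 5.11, 5.05 and 5.45 and then 5.30, 5.22 and 5.84 in the KD, above background on no array, and 6.71, 6.63 and 6.78 and then 10.42, 10.33 and 10.19 in the control, where 2 of 3 arrays and then 3 of 3 were above background. Its changes differed by the test (adjusted p = 2.35e-11). Ffar2, a receptor of short-chain fatty acids, and Thrsp, a nuclear protein of lipogenesis, were above background on none of the 6 KD arrays, and rose in the control from 0 of 3 arrays above background to 3 of 3, at least 6.02-fold and at least 4.49-fold. Dusp4, a MAP kinase phosphatase, rose by 2.13 in the control, above background on all 6 arrays, and in the KD it was above background on 1 of 3 arrays of day 1 and 0 of 3 of day 2. Ccdc85b fell in the KD, to above background on 1 of 3 arrays, and rose in the control (−2.55, SE 0.25, adjusted p = 5.67e-08).

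On the other side, BC064033, a symbol with no current RefSeq name, read 7.08, 6.89 and 6.39 and then 8.75, 8.94 and 8.12 in the KD and 7.07, 7.20 and 6.47 and then 6.38, 6.11 and 6.39 in the control, there above background on 0 of 3 arrays of day 2 (adjusted p of the difference = 6.47e-08). Itgbl1, a secreted protein with integrin-like repeats, rose by 1.23 in the KD with a control difference of −0.50, and Pde1b, a phosphodiesterase of cyclic nucleotides, rose at least 1.59-fold in the KD, from above background on 0 of 3 arrays to 2 of 3, with a control difference of −0.58. Wfdc3 (a protease inhibitor domain protein), Krt13 (a keratin) and Omd (osteomodulin, a bone proteoglycan) fell in the control, Wfdc3 by 1.15 on the log2 scale and Krt13 and Omd, then above background on no control array, at least 2.15-fold and 1.20-fold. In the KD they were not called, at 0.75, −0.07 and 0.61. The difference of changes was 1.90 for Wfdc3 and 1.73 for Itgbl1, both above background on all 12 arrays compared, whereas that of Krt13, Omd and Pde1b has no measured size.

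**Figure D4:**
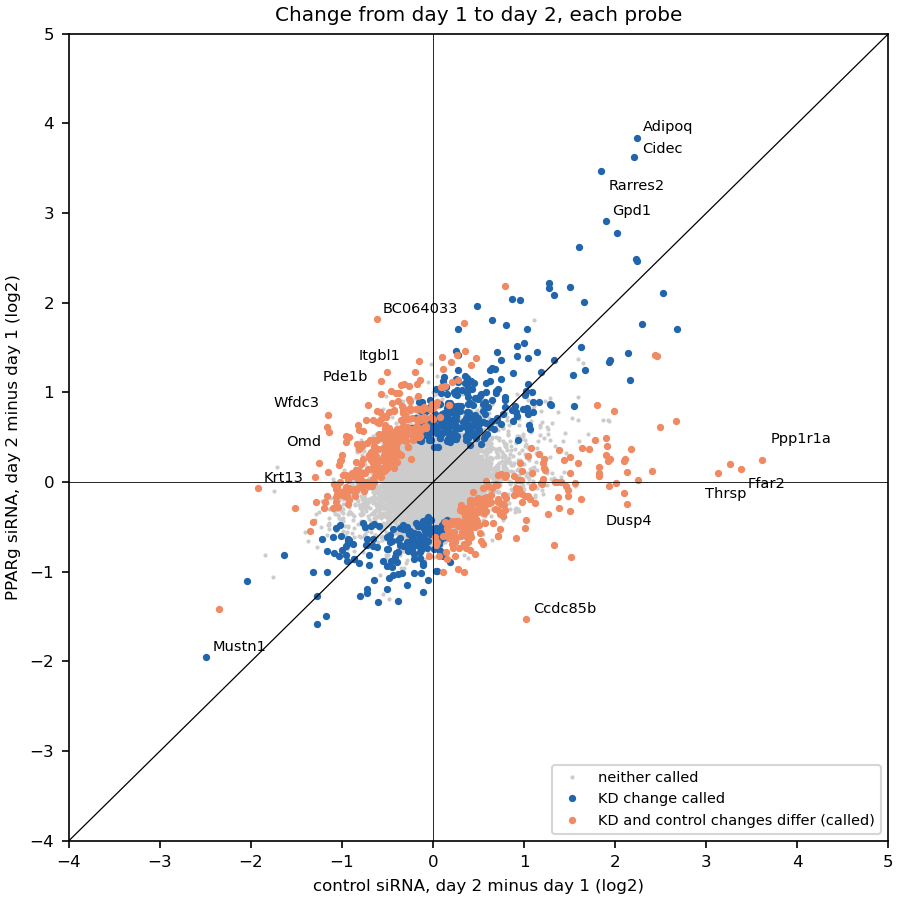
Log2 difference from day 1 to day 2 of every probe in the control cells (x axis) and in the KD (y axis), with the diagonal of equal change, probes called in the KD in blue, probes whose changes differ between KD and control in orange (drawn on top) and the rest in grey. Adipoq, Cidec, Rarres2 and Gpd1 lie high in both cell groups, Ppp1r1a, Ffar2 and Thrsp, whose KD values are below background, lie along the control axis, and Ccdc85b lies in the quadrant of opposite change.

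The intervals before and after this day are given side by side, as they share the arrays of day 1 or day 2. In the KD 2062 probes changed from day 0 to day 1 (1158 rose and 904 fell), and 468 changed from day 2 to day 3 (222 rose and 246 fell). The median of the replication list was 0.90 from day 0 to 1, −0.46 from day 1 to 2 and −0.31 from day 2 to 3, and that of the mitosis list 1.07, −0.52 and −0.34. The medians of the glucocorticoid list were −0.79, 0.47 and −0.92. Agt had differences of −0.72, 2.22 and −1.31 and S3-12 of 0.57, 2.19 and −1.23 over the 3 intervals, Hp of −1.46, 2.11 and −2.19, and Ear2 of −4.12, 2.46 and −4.67. Mustn1 had 3.71, −1.95 and 2.56 and Actg2 4.65, −1.42 and 1.70.

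**Figure D5:**
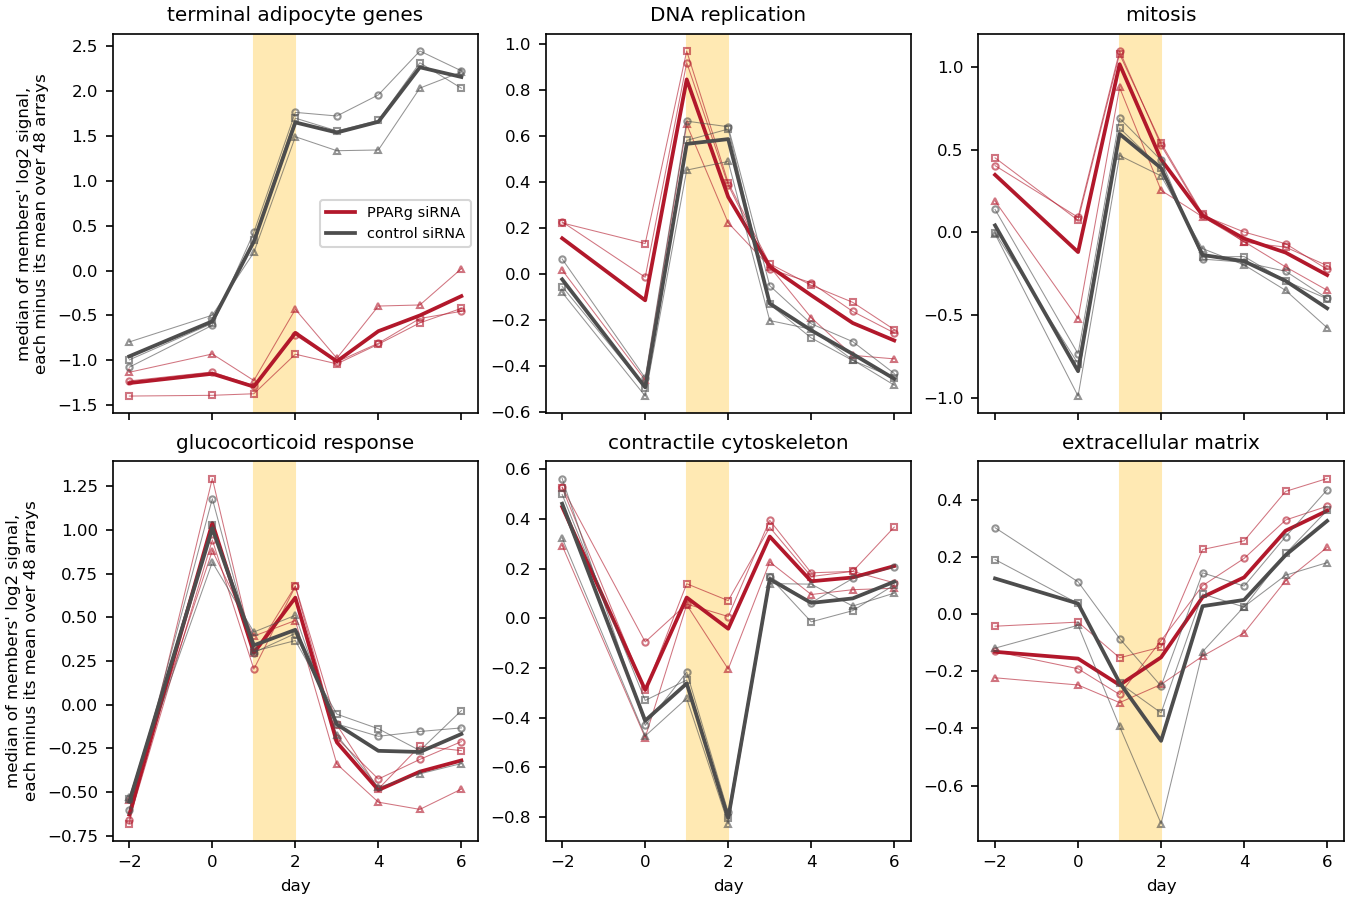
Median over the members of 6 gene lists of the log2 signal, each member taken relative to its own mean over the 48 arrays (y axis), by day (x axis), with thin lines for the replicates and a thick line for their mean, PPARγ siRNA in red and control siRNA in grey, and the interval from day 1 to day 2 shaded. In the KD the replication and mitosis lists stand at means of 0.84 and 1.02 on day 1 and at 0.33 and 0.44 on day 2, while the terminal adipocyte list goes from −1.29 to −0.69 against 0.32 and 1.65 in the control.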

How the data were processed

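RNA of 3T3-L1 cells was read on 48 Illumina MouseRef-8 version 1.1 arrays. The authors deposited mean bead intensity for each probe, summarised in BeadStudio 3.3.7 without normalization, together with a detection fraction (1 less the p-value of detection). Deposited intensity ran from 15.4 to 67066.3. On the 6 KD arrays of days 1 and 2 the array medians lay between 115.5 and 140.6. The number of arrays limits the precision.

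Background was corrected in R 4.3.3 with limma 3.58.1 (normexp, from detection p-values, with an offset of 16). Arrays were scaled on rank-stable probes of medium to high signal (percentiles 50 to 90, rank shift below 0.05 of all probes), with factors of 0.753 to 1.27 on the 6 arrays. This follows the rank-invariant normalization of the study's methods but is a rewritten version of it. The 48 arrays entered a single limma model on the log2 scale, in which every combination of siRNA and day had its mean and replicates were blocked by number (lmFit, eBayes, 30 residual degrees of freedom), and p-values were adjusted by Bonferroni over 24613 probes. The replicate number pairs the samples: the deviations of same-numbered KD arrays of days 1 and 2 correlated at 0.741, 0.857 and 0.909. Deviations of replicates 1 and 2 correlated as highly across numbers, so the numbers mainly set replicate 3 apart.

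Each gene is given by its brightest probe. Where no array of a day was above background, the change is a lower bound, the bright day's mean against the mean, per array, of the lowest signal above background or the probe's own where higher. Named are Pparg, the 12 largest called rises and falls that were above background on all arrays of the higher day and moved the same way in every pair, the 6 largest called differences between KD and control in each direction, up to 4 called members of each list in each direction and members that define a list. A few results that these rules select are not reported here, and no other gene takes their place. Acta1, the members given for the difference between KD and control beyond these, and Col6a3 were named after their values were seen. The comparison, the lists and the rules were chosen with earlier results of these data known, so counts over lists describe and support nothing, and no list was tested. Symbols are those of the array, and 13869 of 18991 matched a current RefSeq symbol and 3473 a single synonym. The fit was also run on data simulated from the fitted model itself. Such data cannot test the background correction or the scaling. Figures were drawn with matplotlib 3.10.9. Which BeadChip held which array is not given in the sources used here. Alternatives varied the scaling, background correction, offset, filter on dim probes, block, arrays fitted, adjustment and variance estimate, and left out each replicate.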

Additional observations from a re-analysis of the deposited data

Results flagged for a closer look

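The change from day 1 to day 2 differed between KD and control cells by the test of the difference in 284 probes where it was higher in the KD and 228 where it was lower. Among the genes named, the fitted difference of changes was 2.44 for BC064033, 1.90 for Wfdc3, 1.86 for Krt13, 1.77 for Omd, 1.73 for Itgbl1, 1.71 for Pde1b, 1.41 for S3-12 and 0.93 for Actg2, each higher in the KD. It was −3.36 for Ppp1r1a, −3.24 for Ffar2, −3.02 for Thrsp, −2.55 for Ccdc85b and −2.37 for Dusp4. These are fitted values. The probe was not above background on any KD array for Ppp1r1a, Ffar2 and Thrsp, nor on the control arrays of day 1 for Ffar2 and Thrsp, the KD arrays of day 2 for Dusp4, the KD arrays of day 1 for Pde1b, or the control arrays of day 2 for BC064033, Krt13 and Omd, so the size of these differences was not measured and no order is read from them. Ccdc85b was above background on 1 of 3 KD arrays of day 2, so the size of its difference is uncertain too. S3-12 is the only named one of the largest KD rises in which the difference was called, and Ccdc85b and Actg2 are the only such among the 12 largest falls. Groups of 3 arrays were not tested for single outlying arrays.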

How the results depend on the processing

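The number of probes called in the KD depended on the processing more than the direction of the changes did, and none of the 602 calls changed sign under any alternative. Of 602 KD calls and 512 differences from the control, median scaling left 281 (215 rose and 66 fell) and 163 (75 higher and 88 lower), the fit without the replicate block 230 and 173, and the fit of only the arrays compared with the replicate block 231 and 114. Benjamini-Hochberg adjustment gave 2787 and 2629. The other alternatives kept both counts within 1.5 times, at 416 to 814 and 468 to 689. Leaving out each replicate in turn gave 120 to 434 KD calls and 61 to 351 differences. Without replicate 1 it was 122 and 73, without replicate 2 it was 120 and 61, and without replicate 3, which stands apart, 434 and 351. The share of rises among KD calls, 64.6%, was 76.5% with median scaling, 74.9% with only the arrays compared, 53.9% with Benjamini-Hochberg, and 79.5% without replicate 1.

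Pparg kept its call in all alternatives but 1, with 0.88 to 1.16 without each replicate and an adjusted p of 0.0938 without replicate 2. Of 83 named genes called in the KD 24 kept the call in every alternative, Adipoq, Cidec, Rarres2, Gpd1, Agt, Hp, Mustn1, Actg2 and Gclm among them, and none changed direction. Of the 11 named differences 6 kept it. Terminal adipocyte rises numbered 5 to 10 and glucocorticoid rises 1 to 3 without each replicate. Cell cycle calls were less stable: without the replicate block 0 replication and 2 mitosis genes were called, and without replicate 3 the numbers were 7 and 2. Median scaling centres all probes at −0.01 where the main scaling left them at −0.04. Signal over background limits what can be seen of genes such as Fabp4 and Cebpa in the KD.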

Other observations

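The called probes held groups of genes that no list of the report covered. For each a full list was written after the called probes had been seen, so the counts are a description, to be read against 1.86% of symbols rising and 0.943% falling. Counts of differences from the control are read against 1.15% of all probes higher in the KD and 0.926% lower. These lists were not rerun under the alternative processing, so how far their counts depend on it is not known. Of 76 lysosomal genes on the array (hydrolases, membrane proteins and the proton pump) 18 rose in the KD from day 1 to day 2 and 0 fell, 66 differences were above 0, and the median was 0.37, whereas in the control cells 1 rose with a median of 0.06. Neu1, the lysosomal sialidase, read 9.79, 9.88 and 9.72 on day 1 and 11.17, 11.16 and 11.07 on day 2 (1.34, SE 0.11, adjusted p = 1.18e-10 by limma), with a control difference of 0.20. Ctns, the cystine exporter, rose by 1.14, Dpp7, a dipeptidase, by 0.89, and Tpp1, a tripeptidase, by 0.88. The change was higher in the KD than in the control in 7 members and lower in 0. From day 0 to day 1 of the KD 20 members had fallen and 0 had risen, where 904 of all 24613 probes fell and 1158 rose. From day 2 to day 3 of the KD no member was called.

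Of 60 genes of ribosome assembly (nucleolar factors and RNA polymerase I subunits) 11 fell in the KD and 0 rose, 56 differences were below 0 with a median of −0.28, and in the control cells 4 rose and 0 fell with a median of 0.24. The change was lower in the KD than in the control in 14 members and higher in 0. Nol1 (Nop2), which methylates ribosomal RNA, read 10.42, 10.51 and 10.02 and then 9.78, 9.76 and 9.33 (−0.69, SE 0.09, adjusted p = 0.000155) and rose by 0.54 in the control. None of the 43 cytosolic ribosomal proteins on their list was called in the KD by limma, while 6 had an unadjusted p under 0.05 and 2 were called by Benjamini-Hochberg. Of the 72 mitochondrial ones 1, Mrps6, rose, which is 1.39% against 1.86% of all symbols. Of all 24613 probes 4745 had an unadjusted p under 0.05 and 2787 were called by Benjamini-Hochberg. Of 28 genes of nucleotide and one-carbon synthesis 4 fell and 0 rose (median −0.28), namely Atic, which was 2.01-fold lower, and Shmt2, Mthfd1l and Umps with log2 differences of −0.93, −0.74 and −0.69, against a control median of 0.14.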
